A study of Mus musculus with 8 samples.

Results

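Circadian clock genes were examined in layer IV of the mouse visual cortex, as 10 genes out of the 34980 genes that the count files pair with a transcript. The members were the rows whose gene symbol was Dbp, Nfil3, Per1, Per2, Per3, Cry1, Nr1d1, Bhlhe41, Arntl or Clock, and each gene was represented by its transcript with the highest total count over the libraries. All 10 were present and all 10 passed the filter on low counts. RNA-seq libraries were made from B6D2 mice, from layer IV dissected by hand. The groups were heterozygous Otx2 mice (Otx2 +/-, a GFP allele in the design text) at postnatal day 30, wild-type mice (Otx2 +/+) at postnatal day 100 and wild-type mice at postnatal day 30, here called P30 Otx2+/-, P100 Otx2+/+ and P30 Otx2+/+. Each group had 2 libraries from tissue of 4 pooled mice, and the labels do not say whether duplicates came from separate pools, so the p-values rest on a spread between libraries that may be technical. A heterozygous P100 group of 2 samples was not analysed here. Otx2 encodes a homeodomain transcription factor that the adult cortex takes up rather than makes.

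The clock is a set of interlocked feedback loops of transcription. CLOCK and BMAL1 (the product of Arntl) pair and switch on genes with E-box elements, among them the Per and Cry genes, Nr1d1, Bhlhe41 and Dbp, and the PER and CRY proteins then silence CLOCK and BMAL1. The REV-ERB repressors (products of Nr1d1 and Nr1d2) and the ROR activators compete at RORE elements of genes such as Arntl, Clock and Nfil3, and DBP activates and NFIL3 represses genes with D-box elements, such as Per genes. Clock transcripts cycle through the day, in the cortex too, and Per1 is also induced by neuronal activity and by glucocorticoids. The labels give no hour of dissection, so the hour and the group cannot be told apart in any comparison below.

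Library totals over genes ran from 11016841 to 15308781 counts, and the 10 members together held 650.3 to 761.6 CPM (counts scaled to the library total, here after TMM, a correction for composition). Duplicates were not the same library deposited again: their chi-square per degree of freedom was 4.42 to 5.78, where sampling noise alone gives about 1. The 5 layer 4 markers, Rorb among them, were present in all libraries, with a summed level of 1439.8 to 1723.6 CPM. Most of this sum came from Plcxd2 and Rorb, with means of 821.2 and 532.3 CPM over the libraries. In P30 Otx2+/- against P100 Otx2+/+ cortex 2 of the 5 were called lower and none higher. Over all genes tested, 2.66% were called lower and 2.44% higher in that comparison. Scnn1a averaged 4.32 CPM in P30 Otx2+/-, 9.07 CPM in P100 Otx2+/+ and 7.06 CPM in P30 Otx2+/+ libraries. Otx2 had 73 counts in P30 Otx2+/- replicate 2 and 0 in the 5 other libraries, where 3 counts would be 0.201 to 0.274 CPM, so it could not check the genotype. That library stood apart, since its 10 choroid plexus markers summed to 626.7 CPM, against 1.9 to 2.9 CPM in the others. Without it the genotype differences described below kept their direction, at 1.41 for Dbp, -1.74 for Nfil3, -1.35 for Per1 and 1.03 for Bhlhe41 on the log2 scale. The genotype call of Arntl, also described below, was lost without that library. Levels of Xist, transcribed from the inactive X chromosome, were 784.8 and 924.4 CPM in P30 Otx2+/- libraries but at most 0.639 CPM in any wild-type library, and the Y-linked Ddx3y had 2.48 and 1.04 CPM in P30 Otx2+/- libraries but 145.7 CPM or more in every wild-type library. Sex and genotype therefore cannot be told apart in either comparison with P30 Otx2+/- cortex.

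The elements of these loops could be seen in the promoters of some members. Windows ran from 250 bases before to 50 bases after each RefSeq transcript start (build GRCm38.p6, the mm10 assembly). They were found for 9 of the 10 members, 13 windows in all, with none for Per2, and were searched on both strands. The E-box was CACGTG, the D-box TTATGTAA or TTACGTAA, the RORE core TAGGTCA, and the cyclic AMP response element TGACGTCA. The 5 windows below, on the strand of the gene and 5′ to 3′, are shown because their genes passed the test in at least 1 comparison and hold a match, which is in capitals.
Per3, chr4:151044616-151044915, minus strand, D-boxes: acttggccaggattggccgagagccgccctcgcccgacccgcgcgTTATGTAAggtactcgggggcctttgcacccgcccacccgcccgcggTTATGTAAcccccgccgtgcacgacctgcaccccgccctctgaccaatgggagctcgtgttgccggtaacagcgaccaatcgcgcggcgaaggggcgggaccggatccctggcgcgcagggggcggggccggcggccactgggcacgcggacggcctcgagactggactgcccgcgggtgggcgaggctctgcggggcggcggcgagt
Nfil3, chr13:52980990-52981289, minus strand, RORE core as its reverse complement: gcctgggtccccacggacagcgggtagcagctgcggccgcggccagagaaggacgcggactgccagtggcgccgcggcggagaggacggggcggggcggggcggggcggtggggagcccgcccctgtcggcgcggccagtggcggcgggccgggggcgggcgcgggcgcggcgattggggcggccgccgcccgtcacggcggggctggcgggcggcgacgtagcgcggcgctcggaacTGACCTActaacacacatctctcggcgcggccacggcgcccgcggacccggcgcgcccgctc
Arntl, chr7:113207261-113207560, plus strand, RORE core: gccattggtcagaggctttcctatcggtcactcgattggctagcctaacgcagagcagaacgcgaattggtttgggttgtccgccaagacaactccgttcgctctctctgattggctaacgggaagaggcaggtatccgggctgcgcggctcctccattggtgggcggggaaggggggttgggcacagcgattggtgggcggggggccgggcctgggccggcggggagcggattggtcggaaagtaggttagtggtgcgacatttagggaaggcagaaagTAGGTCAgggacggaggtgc
Bhlhe41, chr6:145865371-145865670, minus strand, E-box: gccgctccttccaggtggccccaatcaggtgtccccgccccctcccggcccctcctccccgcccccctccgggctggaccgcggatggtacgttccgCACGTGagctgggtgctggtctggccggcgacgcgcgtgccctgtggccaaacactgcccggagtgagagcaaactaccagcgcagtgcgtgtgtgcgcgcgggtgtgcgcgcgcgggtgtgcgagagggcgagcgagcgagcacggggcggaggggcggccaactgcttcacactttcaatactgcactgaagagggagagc
Per1, chr11:69098699-69098998, plus strand, E-box: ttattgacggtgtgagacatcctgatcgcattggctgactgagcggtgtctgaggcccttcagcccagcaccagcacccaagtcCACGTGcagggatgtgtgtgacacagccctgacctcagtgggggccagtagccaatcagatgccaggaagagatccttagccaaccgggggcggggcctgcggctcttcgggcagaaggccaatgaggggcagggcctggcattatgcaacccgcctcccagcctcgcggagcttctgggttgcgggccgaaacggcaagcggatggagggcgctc

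The Per3 window held the D-box at 205 and 158 bases before the start, and no other member's window held it, against 0.938% of all 32851 windows of this length. The RORE core lay 12 bases before the start of Nfil3 and 30 bases after a start of Arntl, and 2.61% of all windows held it. The E-box occurred in Per1, Bhlhe41 and Cry1, at 166, 153 and 60 bases before the start, and in 7.15% of all windows. No member had a match to TTACGTAA (0.119% of windows) or TGACGTCA (1.79%), and the windows of Dbp, Nr1d1 and Clock held none of the motifs. These shares are over single windows, whereas a member was counted if any of its windows held a match. A match in these short windows is a description of the letters and not a measured binding site.

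**Figure D1:**
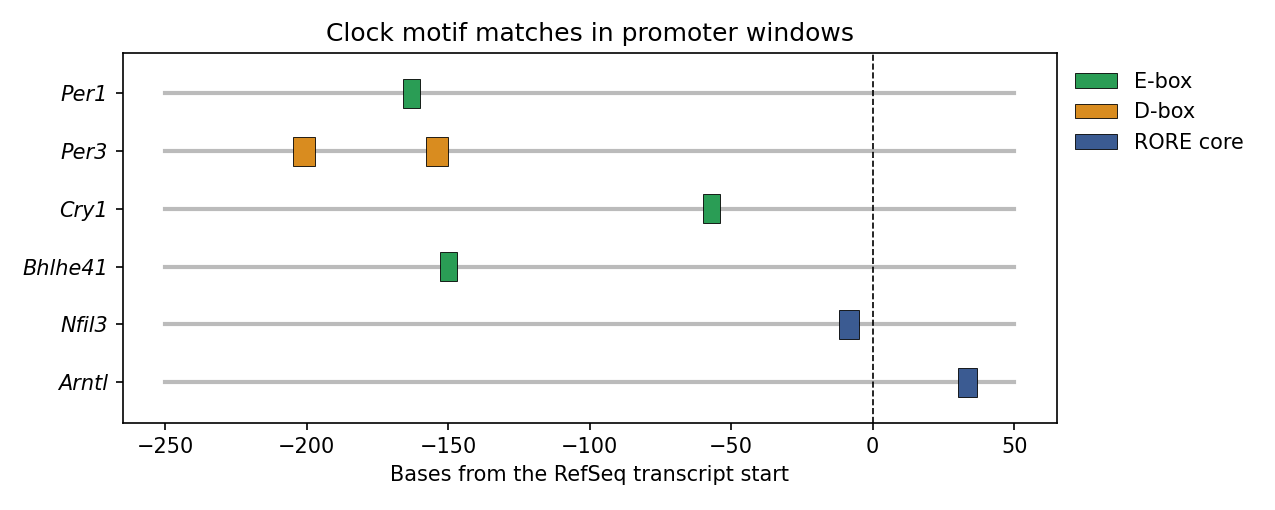
Positions of exact motif matches in the promoter windows of the 6 members that hold any, in bases from the RefSeq transcript start (dashed line); grey lines are the searched windows and coloured boxes the matches. Per3 has 2 D-box matches, Nfil3 and Arntl have a RORE core near the start, and Per1, Cry1 and Bhlhe41 have an E-box upstream of it.

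Per kilobase of transcript, mean levels over the 6 libraries were highest for Clock (32.6 CPM per kb), Dbp (31.3) and Nr1d1 (27.3), followed by Arntl (19.6), Per1 (12.5), Per3 (10.8), Nfil3 (9.45), Per2 (8.26), Cry1 (7.60) and Bhlhe41 (6.76). The order of Dbp and Nfil3 differed by group. In P30 Otx2+/- cortex Dbp was the highest member at 44.0 CPM per kb and Nfil3 the lowest at 4.72, and in P100 Otx2+/+ cortex they stood at 33.1 and 6.73. In P30 Otx2+/+ cortex they stood side by side, Dbp at 16.7 and Nfil3 at 16.9 CPM per kb. In bulk tissue, fewer cells of a type and less RNA per cell cannot be told apart.

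**Figure D2:**
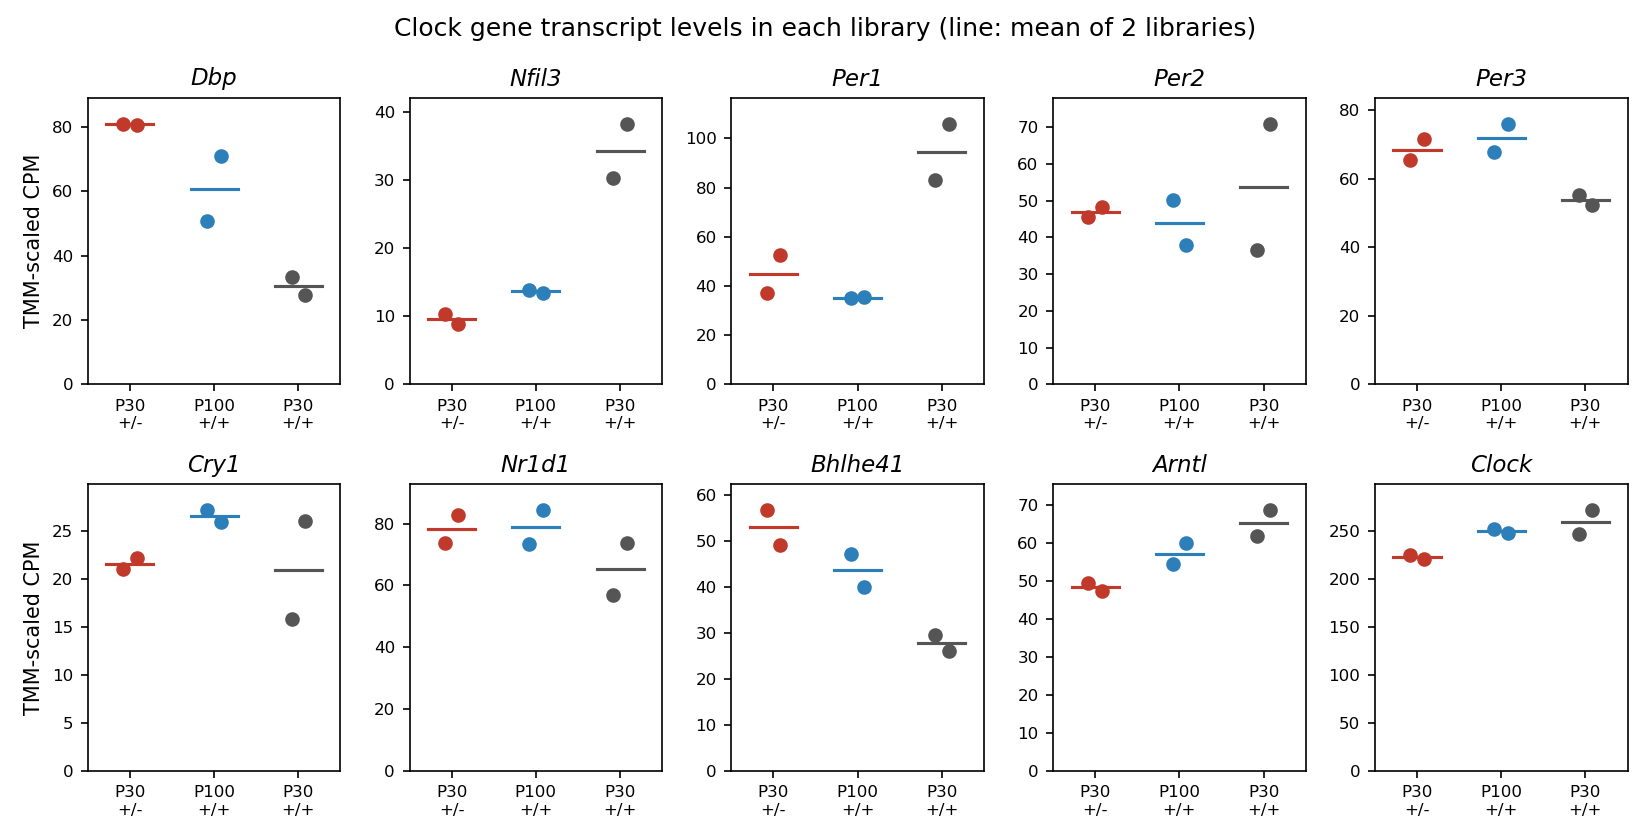
TMM-scaled CPM of the 10 clock genes in each library (points) with the mean of the 2 libraries of a group (line), for P30 Otx2+/-, P100 Otx2+/+ and P30 Otx2+/+ from left to right, each axis starting at 0. Dbp and Bhlhe41 are lowest and Nfil3 and Per1 highest in both P30 Otx2+/+ libraries, while Clock lies between 220.5 and 271.9 CPM in all libraries.

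The D-box pair held the largest log2 differences of the members between genotypes. Dbp, the activator, was higher and Nfil3, the repressor, was lower in both P30 Otx2+/- and P100 Otx2+/+ cortex than in P30 Otx2+/+ cortex. Dbp (ENSMUSG00000059824, chromosome 7, 45705088 to 45710203, plus strand) had 81.0 and 80.8 CPM in P30 Otx2+/- libraries, 50.7 and 71.0 CPM in P100 Otx2+/+ libraries and 33.5 and 27.7 CPM in P30 Otx2+/+ libraries. No library of either of the first groups overlapped the P30 Otx2+/+ libraries. The level was 2.65-fold higher in P30 Otx2+/- than in P30 Otx2+/+ cortex (log2 difference 1.41, SE 0.14, edgeR quasi-likelihood adjusted p = 8.67e-05), and 1.99-fold higher at P100 than at P30 in wild type (0.99, SE 0.14, adjusted p = 0.00107). All 5 Dbp transcripts in the files, which appear to share reads, moved alike, with log2 ratios of 1.40 to 1.48 for P30 Otx2+/- against P30 Otx2+/+. In the authors' deposited table the same transcript had a log2 difference of 1.41 with an adjusted p of 1.31e-27 for genotype, and 0.99 with an adjusted p of 0.151 for age. The exons of Dbp share 29.3% of their bases with Sphk2, a sphingosine kinase gene on the opposite strand, and the sources used here give no use of strand in counting. Sphk2 averaged 14.7, 13.5 and 14.5 CPM in P30 Otx2+/-, P100 Otx2+/+ and P30 Otx2+/+ libraries and did not pass the test in any comparison.

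Nfil3 (ENSMUSG00000056749, chromosome 13, 52967209 to 52981073, minus strand), whose promoter carries the RORE core printed above, had 10.3 and 8.85 CPM in P30 Otx2+/- libraries, 13.9 and 13.4 CPM in P100 Otx2+/+ libraries and 30.3 and 38.2 CPM in P30 Otx2+/+ libraries. The groups did not overlap in any pair. It was 3.60-fold lower in P30 Otx2+/- than in P30 Otx2+/+ cortex (log2 difference -1.85, SE 0.14, edgeR adjusted p = 6.28e-06) and 2.52-fold lower at P100 than at P30 in wild type (-1.33, SE 0.14, adjusted p = 8.30e-05). The calls of Dbp and Nfil3 in both comparisons held under each of the 15 alternatives, leaving out any single library among them.

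Because both genes were counted in the same library, their ratio does not depend on scaling. Dbp had 7.90 and 9.13 counts for each Nfil3 count in the P30 Otx2+/- libraries, 3.65 and 5.31 in the P100 Otx2+/+ libraries and 1.11 and 0.727 in the P30 Otx2+/+ libraries. Every P30 Otx2+/- library was thus above every P100 Otx2+/+ library, and these were above every P30 Otx2+/+ library. On the log2 scale, with 0.5 added to each count, the ratio averaged 3.08 ± 0.15 in P30 Otx2+/-, 2.13 ± 0.38 in P100 Otx2+/+ and -0.16 ± 0.43 in P30 Otx2+/+ libraries (SD, n = 2 each). The difference was 3.24 for P30 Otx2+/- against P30 Otx2+/+, a 9.44-fold change of the ratio, 2.29 (4.90-fold) for P100 against P30 in wild type, and 0.95 (1.93-fold) for P30 Otx2+/- against P100 Otx2+/+. The pooled SD was 0.34, so each difference exceeded the spread between duplicates, but with 2 libraries against 2 the exact two-sided permutation test gave p = 0.333 for each pair, the smallest it can give.

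**Figure D3:**
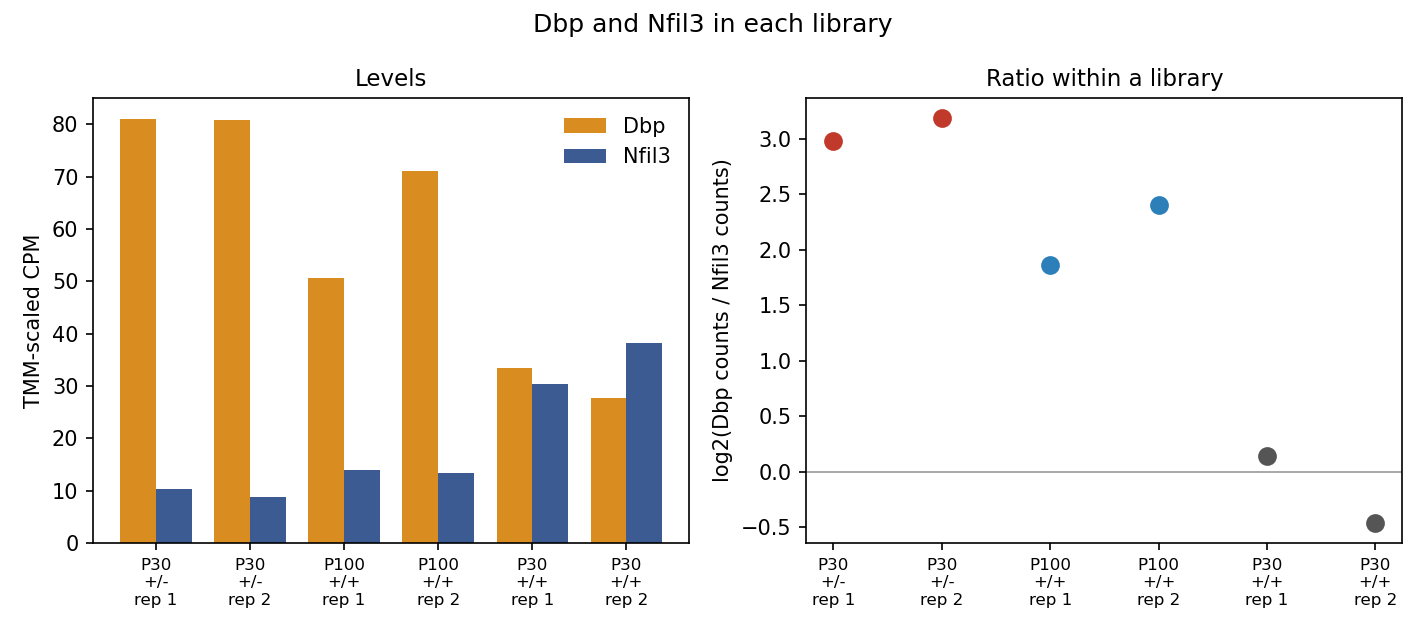
Dbp and Nfil3 in each library, as TMM-scaled CPM (left, bars) and as the log2 ratio of Dbp to Nfil3 counts within the library (right, points; the grey line marks equal counts). The ratio is 2.98 and 3.19 in P30 Otx2+/-, 1.86 and 2.40 in P100 Otx2+/+ and 0.14 and -0.46 in P30 Otx2+/+ libraries.

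The Period genes, which encode the PER repressors of CLOCK and BMAL1, did not move together. Per1 (ENSMUSG00000020893, chromosome 11, 69095217 to 69109960, plus strand), with the E-box printed above, had 37.1 and 52.7 CPM in P30 Otx2+/- libraries, 35.0 and 35.4 CPM in P100 Otx2+/+ libraries and 83.1 and 105.9 CPM in P30 Otx2+/+ libraries. All 4 libraries of the first groups lay below both P30 Otx2+/+ libraries. Per1 was 2.11-fold lower in P30 Otx2+/- than in P30 Otx2+/+ cortex (log2 difference -1.08, SE 0.14, edgeR adjusted p = 9.43e-04) and 2.69-fold lower at P100 than at P30 in wild type (-1.43, SE 0.15, adjusted p = 8.43e-05), and these calls held under each of the 15 alternatives. Its 6 transcripts, which appear to share reads, had log2 ratios of -1.09 to -0.92 for genotype and -1.44 to -1.29 for age. Per3 (ENSMUSG00000028957, chromosome 4, 151003652 to 151044665, minus strand), with the D-boxes, had 65.5 and 71.5 CPM in P30 Otx2+/- libraries, 67.9 and 76.0 CPM in P100 Otx2+/+ libraries and 55.4 and 52.3 CPM in P30 Otx2+/+ libraries. The P30 Otx2+/+ libraries were the lowest. Per3 was 1.34-fold higher at P100 than at P30 in wild type (log2 difference 0.42, SE 0.09, edgeR adjusted p = 0.0161). For P30 Otx2+/- against P30 Otx2+/+ the log2 difference was 0.35 (SE 0.09) and missed the threshold with an adjusted p = 0.0579. The age call was lost without P30 Otx2+/+ replicate 2 (adjusted p = 0.0883) or P100 Otx2+/+ replicate 2 (0.136), and in the authors' deposited table Per3 had a log2 difference of 0.42 for age with an adjusted p of 0.0623.

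The ratio of Per3 to Per1 counts, a pair chosen after its values were seen, was 1.77 and 1.36 in P30 Otx2+/- libraries, 1.94 and 2.15 in P100 Otx2+/+ libraries and 0.667 and 0.494 in P30 Otx2+/+ libraries. Per1 thus gave the more counts only in the P30 Otx2+/+ libraries. Per2 (ENSMUSG00000055866, chromosome 1, 91415982 to 91459324, minus strand) had 45.4 and 48.2 CPM in P30 Otx2+/- libraries, 50.1 and 37.8 CPM in P100 Otx2+/+ libraries and 36.6 and 70.9 CPM in P30 Otx2+/+ libraries. Its P30 Otx2+/+ duplicates enclosed all other libraries, and it passed in no comparison. The log2 difference was -0.21 (95% interval -0.67 to 0.24) for genotype and -0.30 (-0.76 to 0.16) for age. Without P30 Otx2+/+ replicate 1, the lower of these duplicates, Per2 was called lower in both comparisons (-0.60, edgeR adjusted p = 0.0322, and -0.69, adjusted p = 0.0125), while without replicate 2 both differences were above 0 (0.36 and 0.27) and not called.

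Cry1, which encodes a CRY repressor, showed the same split between the P30 Otx2+/+ duplicates. Cry1 (ENSMUSG00000020038, chromosome 10, 85131700 to 85185064, minus strand) had 21.0 and 22.1 CPM in P30 Otx2+/- libraries, 27.1 and 25.9 CPM in P100 Otx2+/+ libraries and 15.8 and 26.1 CPM in P30 Otx2+/+ libraries. It was not called in any comparison, with a log2 difference of 0.02 (95% interval -0.35 to 0.39) for genotype and 0.32 (-0.05 to 0.69) for age. Without P30 Otx2+/+ replicate 2 the age difference was called, at 0.75 (edgeR adjusted p = 0.0123), and without replicate 1 it was 0.02 (adjusted p = 0.949). The genotype difference of Cry1 was 0.45 without replicate 2 and -0.28 without replicate 1, neither called.

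Bhlhe41, which encodes DEC2, a repressor at E-boxes, was higher in both groups. Bhlhe41 (ENSMUSG00000030256, chromosome 6, 145858243 to 145865558, minus strand) had 56.8 and 49.3 CPM in P30 Otx2+/- libraries, 47.2 and 40.1 CPM in P100 Otx2+/+ libraries and 29.5 and 26.1 CPM in P30 Otx2+/+ libraries. It was 1.91-fold higher in P30 Otx2+/- than in P30 Otx2+/+ cortex (log2 difference 0.94, SE 0.12, edgeR adjusted p = 5.77e-04) and 1.58-fold higher at P100 than at P30 in wild type (0.66, SE 0.12, adjusted p = 0.00466). The age call was lost without P100 Otx2+/+ replicate 1 (adjusted p = 0.0547). A predicted gene on the opposite strand, Gm43909, shares 11.8% of the Bhlhe41 exon bases and was not analysed here.

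Its paralog Bhlhe40, which encodes DEC1 and is also induced by neuronal activity, went the other way. Bhlhe40 had 135.8 and 147.3 CPM in P30 Otx2+/- libraries, 180.0 and 126.2 CPM in P100 Otx2+/+ libraries and 185.1 and 264.4 CPM in P30 Otx2+/+ libraries. It was 1.59-fold lower in P30 Otx2+/- than in P30 Otx2+/+ cortex (edgeR adjusted p = 0.0295) and 1.47-fold lower at P100 than at P30 in wild type (adjusted p = 0.0446). Both Bhlhe40 calls were lost in DESeq2 (adjusted p = 0.251 and 0.329), with summed transcripts (0.106 and 0.105) and without P30 Otx2+/+ replicate 2 (0.275 and 0.345). The genotype call was also lost without P30 Otx2+/- replicate 1 (0.143), and the age call without P100 Otx2+/+ replicate 2 (0.349) and with only the 4 libraries compared (0.0506). The ratio of Bhlhe41 to Bhlhe40 counts, again a pair chosen after its values were seen, was 0.418 and 0.335 in P30 Otx2+/- libraries, 0.262 and 0.318 in P100 Otx2+/+ libraries and 0.159 and 0.0986 in P30 Otx2+/+ libraries, without overlap between groups.

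Among the positive limb and its RORE regulator, Arntl was the member that passed the test. Arntl (ENSMUSG00000055116, chromosome 7, 113207465 to 113314126, plus strand), which encodes BMAL1, had 49.6 and 47.3 CPM in P30 Otx2+/- libraries, 54.4 and 60.1 CPM in P100 Otx2+/+ libraries and 62.0 and 68.7 CPM in P30 Otx2+/+ libraries. It was 1.35-fold lower in P30 Otx2+/- than in P30 Otx2+/+ cortex (log2 difference -0.43, SE 0.09, edgeR adjusted p = 0.0221), a call lost without P30 Otx2+/+ replicate 2 (adjusted p = 0.153), P30 Otx2+/- replicate 1 (0.115) or P30 Otx2+/- replicate 2 (0.134), and with summed transcripts (0.0799). The predicted gene Gm45355 on the opposite strand shares 1.13% of the Arntl exon bases. The age difference of Arntl was -0.19 (SE 0.09) with an adjusted p = 0.239. Clock (ENSMUSG00000029238, chromosome 5, 76209868 to 76304792, minus strand), the partner of BMAL1, had 224.8 and 220.5 CPM in P30 Otx2+/- libraries, 252.0 and 248.4 CPM in P100 Otx2+/+ libraries and 247.1 and 271.9 CPM in P30 Otx2+/+ libraries. The P30 Otx2+/- libraries were the lowest. Its log2 difference was -0.22 (95% interval -0.37 to -0.08, edgeR adjusted p = 0.0992) for genotype and -0.05 (-0.20 to 0.09, adjusted p = 0.695) for age, so neither interval reached a change of 0.5 on that scale.

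Nr1d1 (ENSMUSG00000020889, chromosome 11, 98767932 to 98775333, minus strand), which encodes REV-ERB alpha, had 73.9 and 82.9 CPM in P30 Otx2+/- libraries, 73.3 and 84.4 CPM in P100 Otx2+/+ libraries and 57.0 and 73.9 CPM in P30 Otx2+/+ libraries. The higher P30 Otx2+/+ library lay at the lower library of each other group, and the log2 difference was 0.26 (SE 0.12) in both comparisons, not called (edgeR adjusted p = 0.275 for genotype and 0.202 for age). Without P30 Otx2+/+ replicate 1 the differences of Nr1d1 were 0.08 for genotype and 0.09 for age, and without replicate 2 they were 0.46 (adjusted p = 0.0912) and 0.47 (adjusted p = 0.0527). Nr1d1 shares 9.67% of its exon bases with Thra, the thyroid hormone receptor alpha gene on the opposite strand, which passed in no comparison. The paralog Nr1d2, which encodes REV-ERB beta, had 110.5 and 101.0 CPM in P30 Otx2+/- libraries, 99.0 and 115.1 CPM in P100 Otx2+/+ libraries and 83.0 and 76.7 CPM in P30 Otx2+/+ libraries. Nr1d2 was 1.33-fold higher in P30 Otx2+/- than in P30 Otx2+/+ cortex (adjusted p = 0.0246) and 1.34-fold higher at P100 than at P30 in wild type (adjusted p = 0.0133). Both Nr1d2 calls were lost with summed transcripts (adjusted p = 0.12 and 0.06) and without P30 Otx2+/+ replicate 2 (0.186 and 0.0933), the genotype call also without P30 Otx2+/- replicate 1 (0.244) and the age call without P100 Otx2+/+ replicate 2 (0.149).

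Counted over the 10 members, P30 Otx2+/- against P30 Otx2+/+ cortex gave 2 higher (Dbp and Bhlhe41) and 3 lower (Nfil3, Per1 and Arntl), where 3.23% of the 15841 genes tested were called, 0.903% higher and 2.32% lower. P100 against P30 in wild type gave 3 higher (Dbp, Bhlhe41 and Per3) and 2 lower (Nfil3 and Per1), where 7.54% were called, 3% higher and 4.54% lower. The median log2 difference of the members was -0.09 for genotype and 0.10 for age, beside 0.00 over all genes tested in both. The groups did not overlap for 8 and 6 of the 10 members, against 48.9% and 51.2% of genes tested. Both comparisons use the same P30 Otx2+/+ libraries, so their values are not independent. The members were chosen with earlier results of these data known, so their counts cannot serve as a test against these shares.

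**Figure D4:**
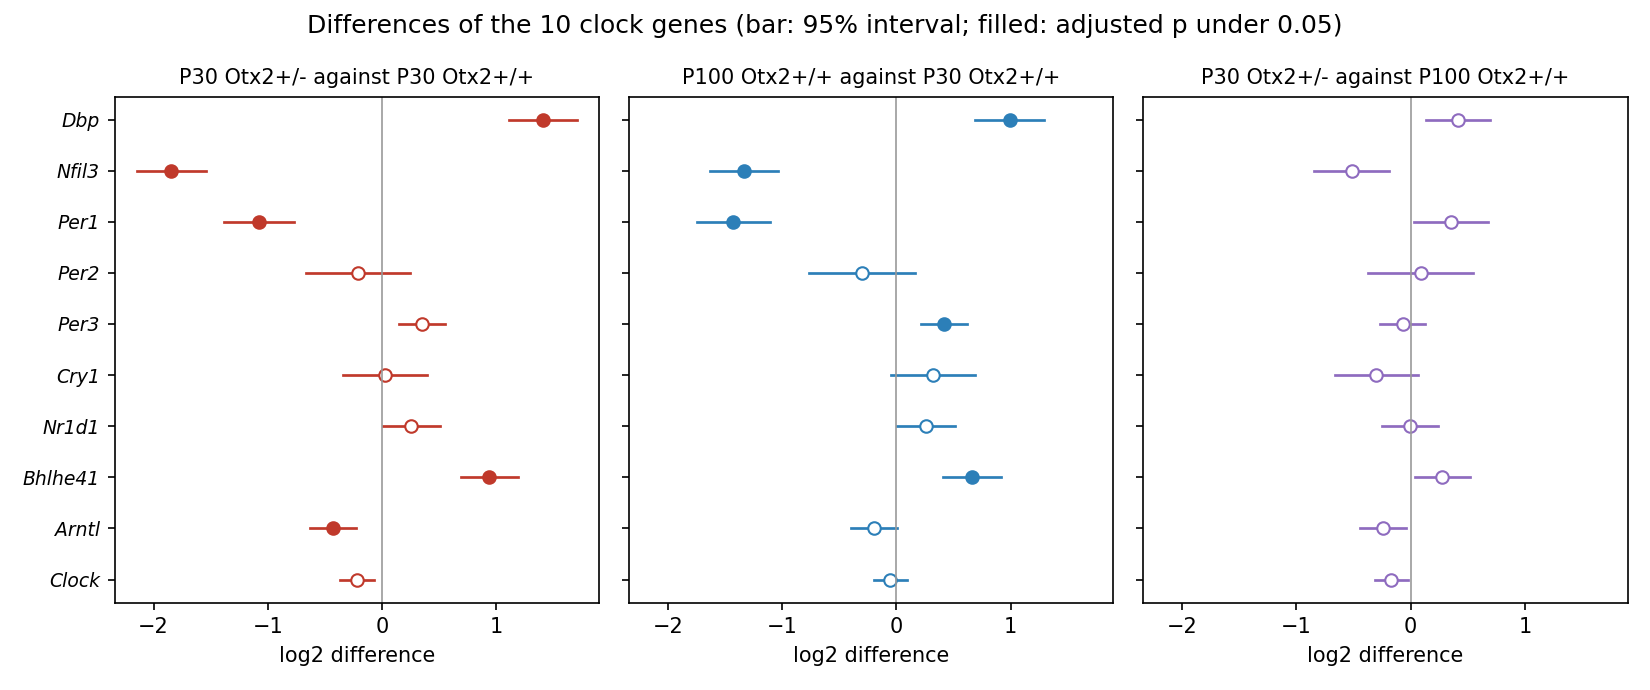
Log2 differences of the 10 clock genes (points) with approximate 95% intervals (bars) for P30 Otx2+/- against P30 Otx2+/+, P100 Otx2+/+ against P30 Otx2+/+ and P30 Otx2+/- against P100 Otx2+/+, filled where the adjusted p is under 0.05. Dbp and Bhlhe41 lie right of 0 and Nfil3 and Per1 left of it in the first and second panels, and no point is filled in the third.

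P30 Otx2+/- cortex set directly against P100 Otx2+/+ cortex, libraries that differ in both age and genotype, gave no call among the 10 members in edgeR, DESeq2 or limma-voom, where 5.1% of genes tested were called in edgeR, 2.44% higher and 2.66% lower. An unadjusted p under 0.05 in edgeR's test was found for 6 of the 10 members, where 19.4% of all genes tested had one, and the median log2 difference was -0.04 beside 0.00 over all genes tested. The log2 difference was 0.42 for Dbp (95% interval 0.13 to 0.70, edgeR adjusted p = 0.0906) and -0.51 for Nfil3 (-0.84 to -0.19, adjusted p = 0.0724). Groups did not overlap for 7 of the 10 members, against 50.5% of genes tested. The intervals were -0.26 to 0.13 for Per3, 0.04 to 0.52 for Bhlhe41, 0.03 to 0.68 for Per1, -0.38 to 0.55 for Per2, -0.66 to 0.06 for Cry1, -0.25 to 0.24 for Nr1d1, -0.44 to -0.04 for Arntl and -0.31 to -0.02 for Clock. Calls appeared when a library was left out. Dbp was called without P100 Otx2+/+ replicate 2 (adjusted p = 0.0203), Nfil3 without P30 Otx2+/+ replicate 1 (0.0411) or replicate 2 (0.0453), and Per1 without P30 Otx2+/- replicate 1 (0.0425). Without a filter on low counts Dbp, Nfil3 and Per1 were called, with adjusted p = 0.0014, 0.016 and 0.0198.

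A further 23 genes of the clock were tested. Over all genes tested, 3.23% were called for genotype, 7.54% for age and 5.1% for P30 Otx2+/- against P100 Otx2+/+. The calls among the 23 genes for age and for P30 Otx2+/- against P100 Otx2+/+ were near these shares. In P30 Otx2+/- against P30 Otx2+/+ cortex 2 were higher (Nr1d2 and Tef) and 1 lower (Bhlhe40), with a median log2 difference of -0.10. At P100 against P30 in wild type Nr1d2 was higher and Bhlhe40 lower, with a median of 0.03, and in P30 Otx2+/- against P100 Otx2+/+ cortex Btrc, a subunit gene of the ubiquitin ligase that degrades PER, was lower (log2 difference -0.26, edgeR adjusted p = 0.0458; median -0.08). The Btrc call was lost under 9 of the 15 alternatives, which were no filter on low counts, DESeq2, summed transcripts and each single library left out. Tef, which like Dbp encodes a D-box activator of the PAR bZIP family, had 370.7 and 357.6 CPM in P30 Otx2+/- libraries, 317.0 and 342.7 CPM in P100 Otx2+/+ libraries and 292.2 and 271.4 CPM in P30 Otx2+/+ libraries. It was 1.29-fold higher in P30 Otx2+/- than in P30 Otx2+/+ cortex (adjusted p = 0.00999), lost without P30 Otx2+/+ replicate 2 (0.0786) or P30 Otx2+/- replicate 1 (0.112). For age its log2 difference was 0.23 (adjusted p = 0.0633). The family's Hlf stood at -0.02 for genotype (SE 0.09, adjusted p = 0.927) and 0.02 for age (SE 0.09, adjusted p = 0.931). Cry2, the paralog of Cry1, stood at -0.27 and -0.26 (adjusted p = 0.0932 and 0.0731).

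**Figure D5:**
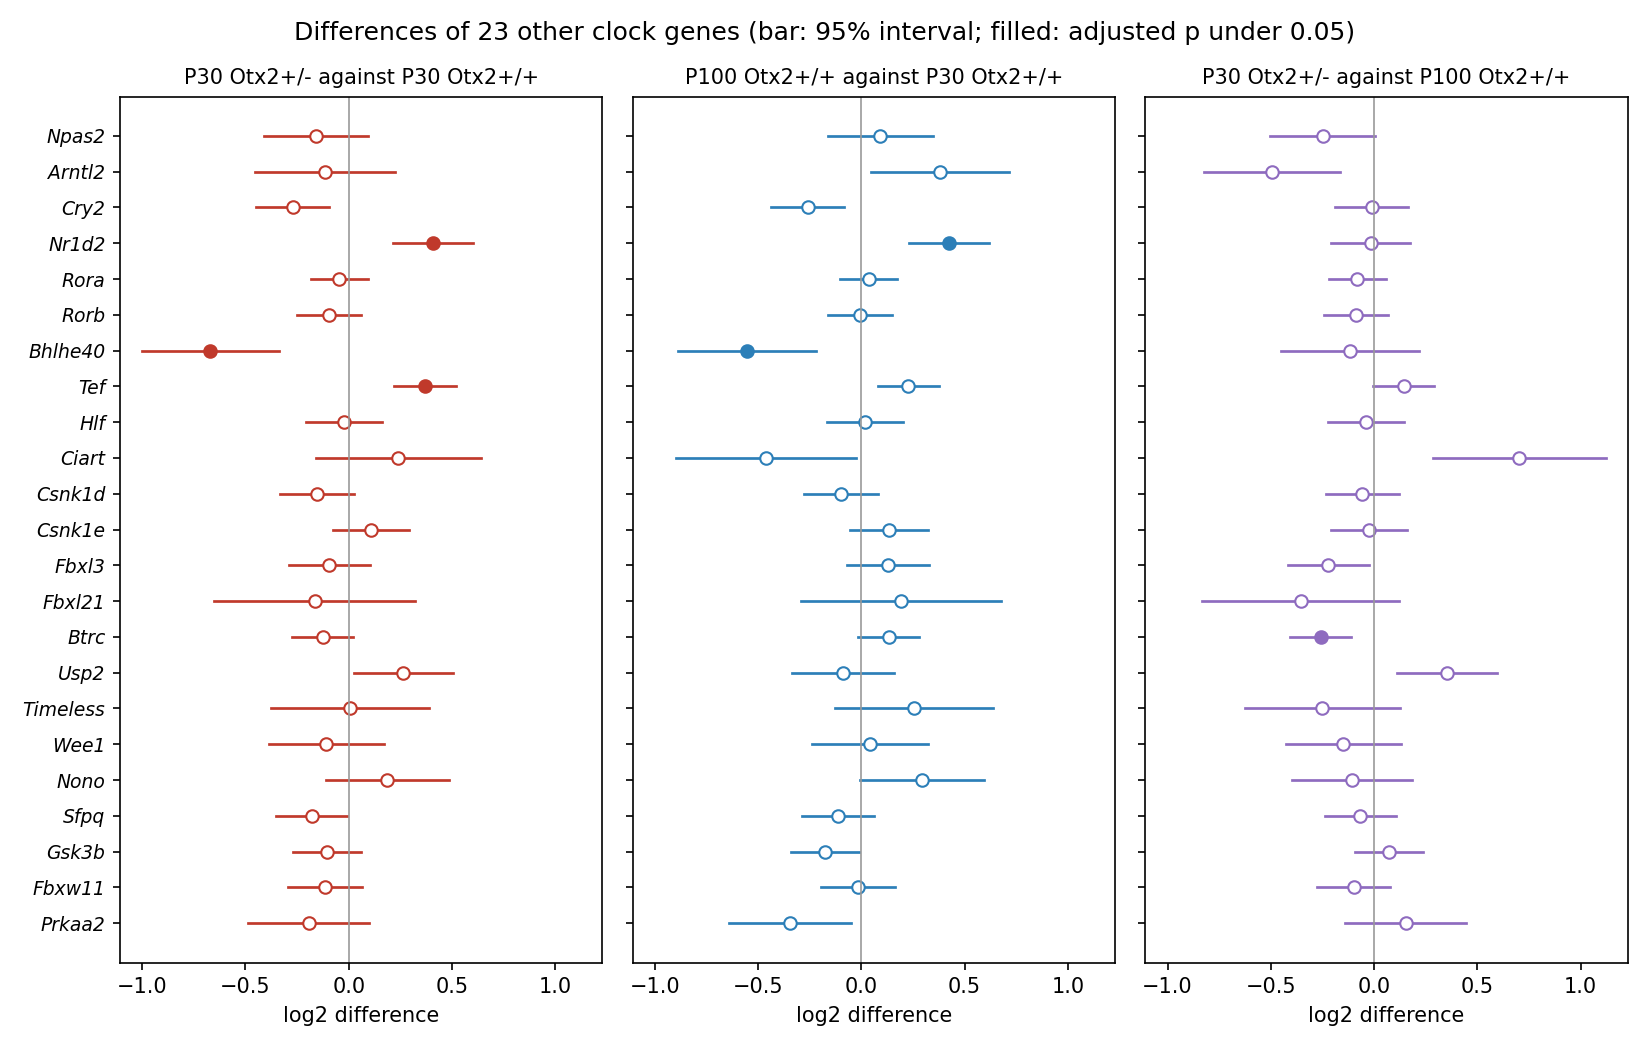
Log2 differences of the 23 other clock genes tested (points) with approximate 95% intervals (bars) for the same 3 comparisons, filled where the adjusted p is under 0.05. Filled points are Nr1d2, Bhlhe40 and Tef in the first panel, Nr1d2 and Bhlhe40 in the second and Btrc in the third.

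Among 10628 genes with a mean of at least 5 CPM and a symbol other than a predicted-gene name, the genes whose levels over the 6 libraries were most like those of Dbp were Nup88, Wdr19, Mybpc1 and Tef, with Pearson correlations of log2(CPM + 0.5) of 0.99 each. Those most like Nfil3 were Smap2, Speg, Rnf213 and Ensa, at 0.99 each. With 6 libraries in 3 groups, such values describe group means for the most part, and they carry no p. The range of these genes was narrower than that of Dbp and Nfil3 themselves: Nup88 ran from 52.3 to 66.3 CPM and Smap2 from 61.9 to 84.6 CPM.

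Several other gene groups differed between the same libraries, where 3.23% of all genes tested were called for genotype and 7.54% for age. All 15 tested activity-induced genes, such as Fos and Egr2, were lower in P30 Otx2+/- than in P30 Otx2+/+ cortex (median log2 difference -1.74) and lower at P100 than at P30 in wild type (-1.94). Their summed level ran from 554.4 to 858.3 CPM in P30 Otx2+/-, 573.7 to 655.3 CPM in P100 Otx2+/+ and 2667.1 to 3228.4 CPM in P30 Otx2+/+ libraries. Per1 and Bhlhe40 were lower in the same comparisons. Of 12 glucocorticoid-responsive genes, 3 were lower in P30 Otx2+/- cortex, among them Tsc22d3 and Nfkbia, and 1 was higher and 4 lower at P100. All 8 myelinating oligodendrocyte markers were lower in both comparisons, and their summed level ran from 2243.6 to 2309.1 CPM in P30 Otx2+/-, 1511.3 to 1793.0 CPM in P100 Otx2+/+ and 3124.5 to 3247.3 CPM in P30 Otx2+/+ libraries. Of 4 layer 5 markers, 2 were higher in P30 Otx2+/- than in P30 Otx2+/+ cortex and none was called for age, with a summed level of 223.2 to 244.9 CPM in P30 Otx2+/-, 147.3 to 205.1 CPM in P100 Otx2+/+ and 169.5 to 171.1 CPM in P30 Otx2+/+ libraries. In each of these comparisons, 2 of 6 astrocyte markers and 1 of 5 endothelial markers were called lower. Of 5 microglia markers, none was called for genotype and 1 was lower for age. Of 5 layer 4 markers, none was called for genotype, and 1 was higher and 1 lower for age. None of the 4 layer 6 markers tested was called in either. In P30 Otx2+/- against P100 Otx2+/+ cortex, where 5.1% of genes tested were called, 5 activity-induced genes were higher and none lower. There, 6 myelinating oligodendrocyte markers were higher and none lower, and 3 glucocorticoid-responsive genes were lower and none higher. Layer 5, layer 6, astrocytes and microglia each had 1 marker higher and none lower, 2 layer 4 markers were lower, and no endothelial marker was called. These lists were also chosen with earlier results of these data known. The part of these groups in the clock gene values was not tested.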

How the data were processed

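Read counts per Ensembl transcript were deposited for 6 of the 8 samples. Bowtie, HTSeq and DESeq 1.8.3 are listed with mm10 in the submitters' processing notes, without roles. The annotation release, settings and use of strand are not given in the sources used here. Tables of comparisons deposited by the authors hold, per the file headers, a log2 fold change and an adjusted p-value per transcript, used where the text names them.

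Of 95533 transcripts, 9669 had no gene (13.96% of counts) and were left out. Each gene was represented by its highest transcript, since isoforms of a gene appeared to share reads. For example, Per1 transcripts had 910, 903 and 900 counts in P30 Otx2+/+ replicate 1. Genes were kept by filterByExpr (count of at least 10, total of at least 15). The deposited counts were then tested by the quasi-likelihood test of edgeR 4.0.16 in R 4.3.3 after TMM scaling, with 3 groups over 6 libraries, 3 residual degrees of freedom and Benjamini-Hochberg adjustment over all 15841 genes, at a threshold of 0.05. SEs are the log2 difference over the root of F. Coordinates, exons and overlaps are from GENCODE M21 on GRCm38, promoters from RefSeq. The scripts were tested on simulated counts in which 200 genes were changed. Other settings tried were upper-quartile or RLE scaling, no filter, CPM 1 in 2 libraries, DESeq2 1.42.0, limma-voom (limma 3.58.1), only the 4 libraries compared, summed transcripts, a replicate block and each library left out.

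Named were all members, up to 4 genes with the smallest p past the threshold of each list, the 4 genes most like Dbp and Nfil3, overlapping genes, and Otx2, Xist and Ddx3y; other genes were chosen after their values were seen. Not every gene that the rule names is described. The members and lists were chosen with earlier results of these data known.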

Additional observations from a re-analysis of the deposited data

How the results depend on the processing

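The counts of members called for genotype (4 to 6 of 10) and for age (4 to 6 of 10) stayed within 1.5 times the reported 5 under all 15 alternatives, and no difference of a member or of Nr1d2, Bhlhe40, Tef or Btrc changed sign while called. The labels do not say whether the replicate numbers pair the libraries. Same-numbered deviations correlated at 0.118 between P30 Otx2+/+ and P30 Otx2+/-. They correlated at -0.001 between P30 Otx2+/+ and P100 Otx2+/+, and at 0.001 between P100 Otx2+/+ and P30 Otx2+/-. These values do not settle whether same-numbered P30 libraries share a batch. With a replicate block the members called stayed at 5 for age and 0 for P30 Otx2+/- against P100 Otx2+/+ and rose to 6 for genotype, where Per3 was added (adjusted p = 0.0463, and 0.017 with no filter on low counts), while the other clock genes called in P30 Otx2+/- against P100 Otx2+/+ rose to 3, against 1 without the block. Over all genes tested, the block raised the calls for genotype from 143 higher and 368 lower to 192 and 450. For P30 Otx2+/- against P100 Otx2+/+ it raised them from 386 higher and 422 lower to 479 and 509. No filter on low counts gave 3 members in that comparison, against 0. It gave 758 higher and 715 lower over the 24034 genes then tested. DESeq2 gave 1 other clock gene for age, against 2, and 0 for P30 Otx2+/- against P100 Otx2+/+, against 1. Over all genes tested it gave 295 higher and 527 lower for age, against 475 and 719. For P30 Otx2+/- against P100 Otx2+/+ it gave 293 higher and 316 lower. With 1 library left out, that comparison gave 0 to 1 members and 0 to 2 other clock genes, and other clock genes called ran from 0 to 2 for age and from 0 to 3 for genotype. The cause of these changes was not tested. The Dbp to Nfil3 log2 ratio difference stayed within its spread under its alternatives, at 2.94 to 3.54 for genotype, 1.99 to 2.59 for age and 0.68 to 1.22 for P30 Otx2+/- against P100 Otx2+/+. With 2 libraries a group, the interval of Per2 for genotype, from -0.67 to 0.24 on the log2 scale, does not show that its level was the same.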
